A study of Homo sapiens with 20 samples.

Results

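The 10 genes described here were those whose RNAseq counts were at or near 0 in one genotype of HL60 cells and well above 0 in the other. FOXP2, CECR7, ARSD, XK, DDIT4L and WASF3 (6 genes) were on in cells labelled HK3-null, and RANBP17, LOC100506688, LOC105370849 and LOC101927657 (4 genes) were on in Cas9 expressing control cells. They were picked by symbol from the 28051 named genes of the series because of this on and off pattern, so their difference between genotypes is given as a description with no test. HL60 is an established line from acute myeloid leukaemia whose cells mature towards granulocytes when given all-trans retinoic acid (ATRA). Both genotypes carried the Cas9 endonuclease from a lentiviral vector, and the HK3-null cells also carried a guide against hexokinase 3 (HK3). Each genotype received 1 µM ATRA or 0.01% DMSO, the diluent, for 36 h, which gave 4 groups of 3 libraries for RNAseq and 4 groups of 2 libraries for chromatin accessibility (ATACseq). Edited lines were grown from single cells by limiting dilution according to the methods, and 1 code (KO-2G) stands in every HK3-null title. Genotype and clone therefore cannot be told apart, and p-values measure only the spread between these libraries, which the methods call biological replicates.

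Values are normalized counts, which are whole numbers that the authors had scaled to a common library size. The 12 RNAseq libraries summed to 29053838 to 31548189 normalized counts, with an estimated depth of 22700000 to 37000000 counts. HK3 itself had 90, 65 and 105 normalized counts in Cas9 control and 344, 302 and 346 in HK3-null under DMSO. Under ATRA it had 1305, 1298 and 1850 in Cas9 control and 1384, 1285 and 1975 in HK3-null. The edit is a small insertion or deletion at the cut site, which these counts do not measure, so they do not check the label, and libraries are named by their labels throughout. The 11 promyelocyte and granulocyte markers listed, among them MPO and ELANE, summed to 584307 to 859751 counts in every library, with none at 0. MPO made up most of this sum, which hides differences between genotypes. In DMSO 7 of the 11 were higher and 2 lower in HK3-null (limma adjusted p under 0.05), beside 28.7% and 28% of all genes tested. CD38 averaged 5 counts in Cas9 control and 191 in HK3-null in DMSO, and CTSG 11932 and 3461. One library stood apart in the number of genes with a count. Replicate 1 of Cas9 control in DMSO had a count for 16750 genes, where the other 11 libraries had one for 15031 to 15801, and of 15 genes that were at 0 in the other 5 Cas9 control libraries and averaged at least 50 in HK3-null, 11 were above 0 there. Their median value in that library was 2 counts, or 1.14% of the HK3-null mean. In each of the other 11 libraries, 0 to 2 such genes were above 0.

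The genes differ widely in what they encode. FOXP2 is a forkhead transcription factor best known from speech and language development. DDIT4L is a relative of the stress-induced DDIT4 and, like it, restrains the growth-promoting kinase complex mTORC1. WASF3 is a WAVE protein, a family that passes signals from Rac to the machinery that nucleates branched actin at the leading edge of a moving cell. XK is a membrane protein that is bound to the Kell antigen on red cells and whose loss causes McLeod syndrome. ARSD belongs to the sulfatases, enzymes that remove sulfate groups, most of them in lysosomes. RANBP17 is a member of the importin-beta superfamily of nuclear transport receptors, close to the exportin XPO7. CECR7 lies in the region duplicated in cat eye syndrome and is annotated as a long non-coding RNA by RefSeq and as a transcribed pseudogene by GENCODE, and the 3 remaining genes carry locus names only.

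In GRCh38, RefSeq places FOXP2 at chr7:114086327-114693765, CECR7 at chr22:17036570-17060070, ARSD at chrX:2903972-2929339 and XK at chrX:37685791-37732130. DDIT4L is at chr4:100185870-100190468, WASF3 at chr13:26539139-26688948 and RANBP17 at chr5:170862018-171300015. LOC100506688, now named LINC02982, is at chr5:987177-997340. LOC105370849 was not matched in the annotations used here and was placed by the ATACseq region that lists it, on chromosome 15. ARSD and XK shared the X chromosome and RANBP17 and LOC100506688 shared chromosome 5, and in neither pair were the genes neighbours. The place of LOC101927657 is given with its accessible region.

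The sequence around the start of 4 genes is shown because an accessible region that differed between genotypes lay over each of these starts. RefSeq promoters (GRCh38.p14, 300 bases around the annotated start, most of them before it) were matched for 6 of the 10 genes, and for WASF3, which has a pair of overlapping entries, the first is printed. Each runs 5′ to 3′ on the strand of the gene, and capitals mark GC boxes (GGGCGG on either strand), which general transcription factors of the SP family bind. RANBP17 is on the plus strand, at chr5:170861768-170862067.
RANBP17: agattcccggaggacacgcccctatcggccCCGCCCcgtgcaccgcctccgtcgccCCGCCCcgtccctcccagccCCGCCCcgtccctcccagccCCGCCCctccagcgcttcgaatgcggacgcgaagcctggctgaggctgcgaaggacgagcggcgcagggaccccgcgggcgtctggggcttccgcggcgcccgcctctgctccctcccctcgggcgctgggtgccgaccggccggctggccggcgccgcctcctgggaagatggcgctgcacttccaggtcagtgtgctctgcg
WASF3 is on the plus strand, at chr13:26557433-26557732.
WASF3: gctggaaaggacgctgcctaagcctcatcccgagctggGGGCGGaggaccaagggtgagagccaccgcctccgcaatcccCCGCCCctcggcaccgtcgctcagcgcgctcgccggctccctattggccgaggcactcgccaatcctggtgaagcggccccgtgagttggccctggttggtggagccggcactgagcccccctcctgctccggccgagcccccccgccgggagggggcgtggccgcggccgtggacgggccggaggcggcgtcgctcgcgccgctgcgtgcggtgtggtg
DDIT4L is on the minus strand, at chr4:100190419-100190718.
DDIT4L: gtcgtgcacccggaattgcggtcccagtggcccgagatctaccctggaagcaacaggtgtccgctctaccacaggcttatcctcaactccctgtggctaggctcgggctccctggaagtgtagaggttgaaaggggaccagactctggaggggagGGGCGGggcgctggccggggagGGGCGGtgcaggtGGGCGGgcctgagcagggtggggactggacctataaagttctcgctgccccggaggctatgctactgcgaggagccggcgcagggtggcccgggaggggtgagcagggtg
LOC100506688 is on the minus strand, at chr5:997291-997590.
LOC100506688: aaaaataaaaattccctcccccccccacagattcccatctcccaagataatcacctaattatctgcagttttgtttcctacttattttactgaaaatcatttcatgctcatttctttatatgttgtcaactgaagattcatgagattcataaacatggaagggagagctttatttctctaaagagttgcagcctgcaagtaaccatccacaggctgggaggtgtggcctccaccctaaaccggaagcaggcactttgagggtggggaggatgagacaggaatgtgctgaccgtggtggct
For FOXP2 the RefSeq promoters in the table lie far inside the gene and under no listed region, so the central 300 bases of the accessible region at its first exon are shown instead (GRCh38, chr7:114085440-114085739, plus strand). These bases lie wholly before the annotated start at 114086327, so they are not placed like the promoters they are set beside.
FOXP2: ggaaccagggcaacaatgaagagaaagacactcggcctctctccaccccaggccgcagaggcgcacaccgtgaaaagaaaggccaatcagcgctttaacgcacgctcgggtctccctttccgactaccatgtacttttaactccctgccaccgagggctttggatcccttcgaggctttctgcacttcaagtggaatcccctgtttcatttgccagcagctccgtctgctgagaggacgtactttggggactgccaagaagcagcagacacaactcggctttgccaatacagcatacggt

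GC boxes were counted on both strands. The promoter of RANBP17 held 4 of them, DDIT4L 3 and WASF3 2, while the promoter of LOC100506688 and the FOXP2 sequence held 0. Of the 35116 promoters in the table, 45% held at least 1. The dinucleotide CG occurred 39 times in RANBP17, 36 in WASF3, 17 in DDIT4L, 15 in the FOXP2 sequence and 2 in LOC100506688, against a median of 14 over all promoters. The GC content was 76.7% in RANBP17, 75.0% in WASF3, 67.0% in DDIT4L, 55.0% in the FOXP2 sequence and 44% in LOC100506688, against a median of 58.7%. The sequences thus ranged from GC-rich with many CG to poor in CG. The promoter of CECR7, not printed since no region lists this gene, held 1 GC box and 18 CG. A TATA box (TATAAA) stood in the promoters of DDIT4L and LOC100506688 and in 11.5% of all promoters. The half-site of retinoic acid receptors (AGGTCA) stood in those of RANBP17 and CECR7 and in 13.8% of all. The core recognised by PU.1 (GAGGAA) was in no promoter of these 6 genes and in 27.9% of all. Each motif was searched for on its own on both strands, so that matches of different motifs may share bases, and a match is a description of letters only.

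FOXP2 had 0 counts in all 6 Cas9 control libraries. The HK3-null libraries had 147, 199 and 162 normalized counts in DMSO and 126, 152 and 146 in ATRA. All 6 libraries of one genotype were thus at 0 and all 6 of the other at 126 or more. Against the 3 counts per library that a count of 0 allows, FOXP2 was at least 61.7-fold higher in HK3-null in DMSO and at least 42.1-fold higher in ATRA. These bounds cover counting error only.

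DDIT4L had 0 counts in 5 of the 6 Cas9 control libraries and 1 count in replicate 1 of DMSO, the library that stood apart. Its HK3-null values were 90, 83 and 95 counts in DMSO and 318, 306 and 337 in ATRA. The ATRA libraries of HK3-null were all above the DMSO libraries. Against 0 counts in ATRA the gene was at least 95.3-fold higher in HK3-null, and in DMSO the ratio to the single count was 268 (95% Poisson interval 47.7 to 10624).

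WASF3 was at 0 in the same 5 Cas9 control libraries and had 7 counts in replicate 1 of DMSO. The HK3-null libraries had 568, 534 and 419 counts in DMSO and 312, 289 and 184 in ATRA. Here the order was the opposite of that of DDIT4L, with every ATRA library below every DMSO library. WASF3 was at least 77.9-fold higher in HK3-null in ATRA, and its ratio in DMSO was 217 (interval 105 to 541).

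XK had 0 counts in the 3 Cas9 control libraries in DMSO and 4, 3 and 3 in those in ATRA. In HK3-null it had 546, 469 and 380 counts in DMSO and 1007, 744 and 628 in ATRA. Of the 10 genes, only XK had counts above 0 in every replicate of a group of the genotype in which it was off. The gene was at least 169-fold higher in HK3-null in DMSO, and the ratio in ATRA was 238 (interval 129 to 497). XK is best known from red cells. The 13 erythroid markers listed summed to 108 to 202 counts in the Cas9 control libraries and 281 to 426 in the HK3-null libraries, and EPOR, the erythropoietin receptor, made up most of this, with 94.7 ± 31 and 135 ± 45 counts (SD, n = 3) in Cas9 control in DMSO and ATRA and 243 ± 22 and 345 ± 53.2 in HK3-null. The red cell genes HBA1, HBA2, HBG2, RHAG and SLC4A1 were at 0 in every library. KEL, which encodes the antigen that binds XK, had 0 to 3 counts in all 12 libraries. In bulk RNA, fewer cells of a type and less RNA per cell cannot be told apart.

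ARSD had 0 counts in 5 Cas9 control libraries and 6 in replicate 1 of DMSO. Counts in HK3-null were 218, 204 and 216 in DMSO and 367, 309 and 347 in ATRA, again with every ATRA library above every DMSO library. It was at least 101-fold higher in HK3-null in ATRA, and the ratio in DMSO was 106 (interval 48.6 to 291). GENCODE lists a pseudogene of ARSD, and how reads shared with it were counted is not given in the sources used here.

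CECR7 was at 0 in all 6 Cas9 control libraries. Its values in HK3-null were 123, 119 and 84 in DMSO and 93, 72 and 65 in ATRA, and these 2 ranges overlapped. It was at least 39.6-fold higher in DMSO and at least 22.8-fold higher in ATRA. Its counts are uncertain where a pseudogene shares reads with related copies.

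The remaining 4 genes had the opposite pattern. RANBP17 had 287, 267 and 273 counts in Cas9 control in DMSO and 237, 279 and 287 in ATRA, and 0 in all 6 HK3-null libraries. LOC100506688 had 456, 532 and 583 counts in Cas9 control in DMSO and 528, 567 and 491 in ATRA, and 0 in all 6 HK3-null libraries. For both genes of chromosome 5 the DMSO and ATRA libraries overlapped.

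LOC105370849 had 547, 563 and 687 counts in Cas9 control in DMSO, 348, 432 and 410 in ATRA and 0 in all 6 HK3-null libraries. LOC101927657 had 739, 767 and 543 counts in Cas9 control in DMSO and 742, 583 and 436 in ATRA. It had 0 counts in 5 HK3-null libraries and 1 in replicate 3 of ATRA. Against the counts that 0 allows, RANBP17 was at least 94.9-fold higher in Cas9 control in DMSO and at least 90.3-fold in ATRA, LOC100506688 at least 180-fold and at least 178-fold, and LOC105370849 at least 206-fold and at least 134-fold. LOC101927657 was at least 235-fold higher in DMSO, and its ratio to the single count in ATRA was 1761 (interval 316 to 69595).

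**Figure D1:**
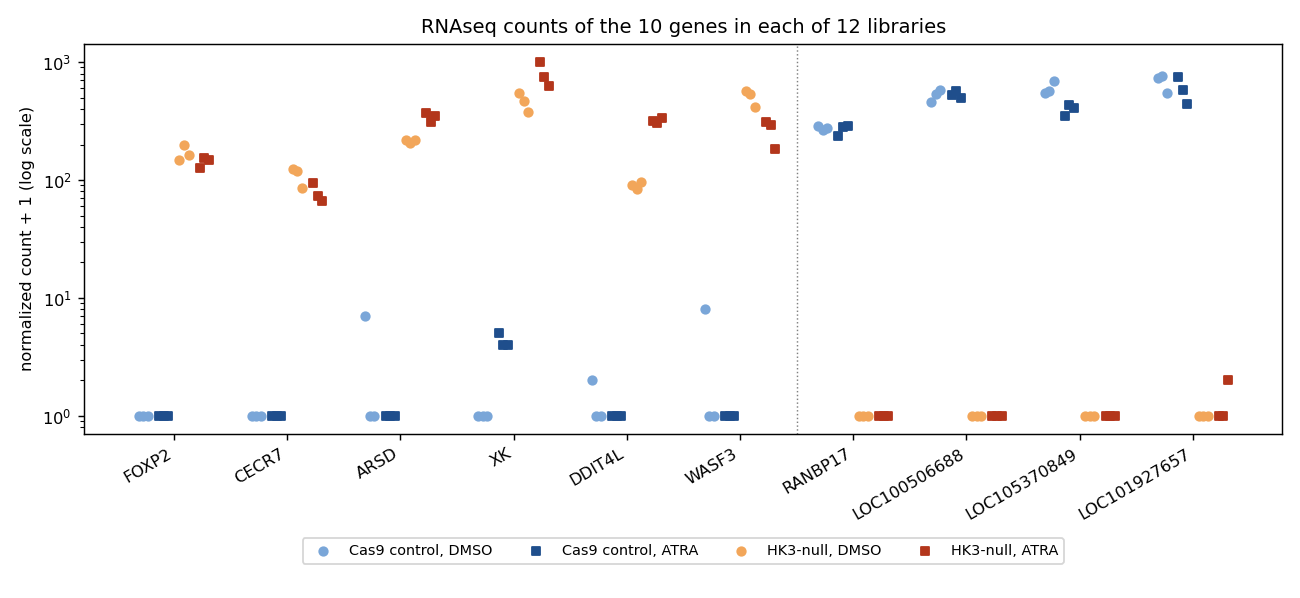
Normalized count plus 1 on a log scale for each of the 10 genes (x axis) in each of the 12 RNAseq libraries, with colour for the genotype and marker for the treatment (3 points per group). The 6 genes left of the dotted line sit at 65 counts or more in HK3-null and at 7 or fewer in Cas9 control, and the 4 genes right of it sit at 237 or more in Cas9 control and at 0 or 1 in HK3-null.

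Few genes of the series had as strict a pattern. With 0 counts in all 6 libraries of Cas9 control and a mean of at least 50 over the HK3-null libraries, 4 genes of 28051 were found (0.0143%), namely FOXP2, CECR7, DEFB1 and NAPSB. In the other direction there were 7 (0.025%), namely RANBP17, LOC100506688, LOC105370849, SLC2A8, ZNF441, TP53TG1 and CLUHP3. The 10 genes are therefore neither all nor only those with the strictest pattern, and 5 of them had a few counts in the genotype called off. Just inside the limit stood CLUHP3 with a mean of 50.3 counts in Cas9 control and TP53TG1 with 55.7. Allowing up to 3 counts in each library gave 47 genes on in HK3-null and 34 on in Cas9 control. The library that stood apart decided the first count: without replicate 1 of Cas9 control in DMSO, 15 genes were at 0 in Cas9 control and on in HK3-null, and 5 of the 10 genes rather than 2 were among them, since ARSD, DDIT4L and WASF3 then had no count in that genotype.

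The response to ATRA was not used to pick the genes and was tested within the genotype where each gene was on. All 10 genes passed the filter on low values, each through that genotype. In HK3-null 3 of the 6 genes rose with ATRA (DDIT4L, XK and ARSD), 1 fell (WASF3) and 2 did not pass the test (FOXP2 and CECR7), where 53.3% of the 12682 genes tested passed at an adjusted p under 0.05 (limma, Benjamini-Hochberg over all genes tested), 26.7% upwards and 26.6% downwards. In Cas9 control 1 of the 4 genes passed, LOC105370849, which fell, where 41.4% of 12597 genes tested passed, 20% upwards and 21.4% downwards. The members' shares are not far from those of all genes.

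DDIT4L rose most by size among the 6, by 1.83 on the log2 scale (SE 0.12, limma adjusted p = 3.8e-06), from 89.3 ± 6.03 to 320 ± 15.6 counts (SD, n = 3), a 3.56-fold rise. XK rose by 0.76 (SE 0.19, adjusted p = 0.0077), from 465 ± 83.1 to 793 ± 194 counts. ARSD rose by 0.68 (SE 0.11, adjusted p = 9.3e-04), from 213 ± 7.57 to 341 ± 29.5 counts. WASF3 fell by 0.98 (SE 0.20, adjusted p = 0.0034), from 507 ± 78.1 to 262 ± 68.2 counts. For these 4 genes the DMSO and ATRA libraries did not overlap, and each change was larger than the spread between replicates. The share of all genes without overlap between treatments was not computed in either genotype, so the lack of overlap is a description only. In a single fit to all 12 libraries, which adds the libraries where these genes are off, the calls of ARSD and WASF3 were lost (adjusted p = 0.35 and 0.21).

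FOXP2 differed by -0.25 (SE 0.16, 95% interval -0.61 to 0.10, adjusted p = 0.20) from 169 ± 26.8 to 141 ± 13.6 counts, and the treatments overlapped. CECR7 differed by -0.49 (SE 0.21, interval -0.96 to -0.023, adjusted p = 0.073) from 109 ± 21.5 to 76.7 ± 14.6 counts. With the replicate number as a block CECR7 passed (adjusted p = 0.0060) and FOXP2 did not (adjusted p = 0.063). CECR7 also passed after quantile normalization (adjusted p = 0.028) and without replicate 1 of HK3-null in ATRA (0.039) or replicate 3 in DMSO (0.023), so its call depended on these choices.

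In Cas9 control LOC105370849 fell by 0.59 (SE 0.13, adjusted p = 0.0067), from 599 ± 76.6 to 397 ± 43.6 counts, without overlap. RANBP17 differed by -0.047 (SE 0.12, interval -0.31 to 0.22, adjusted p = 0.78) and LOC100506688 by 0.019 (SE 0.12, interval -0.25 to 0.28, adjusted p = 0.91). LOC101927657 differed by -0.24 (SE 0.20, interval -0.70 to 0.23, adjusted p = 0.39), and with the replicate number as a block it passed (adjusted p = 0.031). The median change was 0.21 over the 6 genes on in HK3-null, beside 0.015 over all genes tested there, and -0.14 over the 4 on in Cas9 control, beside 0.0030.

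Accessible chromatin was read from 8286 regions. These were deposited as a selection on the ratio between genotypes in ATRA, so that contrast is given as values only, and the tests are those of genotype in DMSO and of ATRA against DMSO. ATACseq signal is the density of fragments in a region after all libraries were reduced to the same number of fragments, and its depth is unknown. A region lists its nearby genes, and 16 regions listed 1 of the 10 genes, with no region for CECR7. Of the 16, 7 lay over a transcription start annotated for the gene in GENCODE 44, 1 each for FOXP2, ARSD, XK, DDIT4L, WASF3, RANBP17 and LOC100506688.

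All 16 regions had higher signal in the genotype in which the gene was on, and in all of them the libraries of the genotypes did not overlap. Since the regions were chosen on the ratio between genotypes in ATRA, the lack of overlap in ATRA was largely set by that choice. The same edited cells were compared in DMSO, so the DMSO difference is not independent of that choice either. Its p-values here and for each region below are therefore not separate support for a difference between genotypes. In DMSO all 16 passed the test of genotype (limma, adjusted p from 1.1e-09 to 0.017). The background was high, since 83.9% of all 8286 regions passed this test (42% higher and 41.8% lower in HK3-null) and the genotypes did not overlap in DMSO in 94.8%, so the count of calls is not a result about these regions. The direction followed the RNA in 16 of 16 regions, with 6 higher and 10 lower in HK3-null. The regions of RANBP17 and LOC100506688 lie on chromosome 5, where 90.7% of 728 regions were lower in HK3-null in DMSO. That of LOC105370849 lies on chromosome 15 (96.5% of 606 lower). Those of WASF3 (chromosome 13, 87% of 324 lower) and LOC101927657 (chromosome 8, 2.6% of 1154 lower) went against their chromosomes. Regions of 1 gene are not separate results, and agreement over other genes was not computed.

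At the start of RANBP17 (chr5:170861726-170862798) the signal was 88.5 and 90.7 in Cas9 control in DMSO and 84.9 and 93.9 in ATRA. In HK3-null it was 2.77 and 2.58 in DMSO and 2.38 and 2.04 in ATRA. This region had the smallest p of the 16, at -4.62 on the log2(signal + 1) scale, HK3-null minus Cas9 control, in DMSO (SE 0.37, adjusted p = 1.1e-09). Further regions lay in introns of RANBP17 and differed less. The one at chr5:171010081-171010446 had 15.4 and 13.5 in Cas9 control and 3.82 and 4.46 in HK3-null in DMSO (log2 difference -1.59, SE 0.55, adjusted p = 0.011). The one at chr5:171154365-171154983 had 59.4 and 34.7 against 23.1 and 17.5 (-1.14, SE 0.42, adjusted p = 0.017). The one at chr5:171168108-171168596 had 44.1 and 51.8 against 8.8 in each of the 2 HK3-null libraries (-2.32, SE 0.34, adjusted p = 4.9e-06). The ratio between genotypes in DMSO was 33.5 at the start of RANBP17 and 2.32 to 5.45 in its introns. The first intronic region lost its call without replicate 1 of Cas9 control in DMSO (limma adjusted p = 0.068). The second lost its call without replicate 1 of Cas9 control in DMSO (limma adjusted p = 0.20) or replicate 2 of HK3-null in DMSO (0.083) and after quantile normalization (0.076). In ATRA these 3 intronic regions had 12.5 to 70.5 in Cas9 control and 1.27 to 22 in HK3-null.

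LOC100506688 was listed by 4 regions. At its start (chr5:997013-997518) the signal was 141 and 162 in Cas9 control in DMSO, 162 and 78.7 in ATRA, 4.13 and 8.0 in HK3-null in DMSO and 6.88 and 4.0 in ATRA (DMSO difference -4.48, SE 0.39, adjusted p = 3.3e-09). The region at chr5:989919-991142 overlaps an exon of the gene and had 52.4 and 40.6 against 2.92 and 2.13 in DMSO (-3.75, SE 0.40, adjusted p = 6.5e-08). The other 2 lie before its start, on the side of NKD2, and list both genes. They had 50.3 and 51.2 against 3.18 and 3.0 (chr5:1002057-1002411, -3.66, SE 0.40, adjusted p = 9.4e-08) and 61.6 and 65.3 against 16.3 and 9.25 (chr5:1004565-1005202, -2.28, SE 0.40, adjusted p = 3.2e-05). All 4 were lower in HK3-null. In ATRA these last 3 regions, in the order given, had 42.4 and 38.2, 56.6 and 30.7, and 47.6 and 50.8 in Cas9 control. The HK3-null libraries in ATRA had 5.0 and 5.32, 7.73 and 14, and 5.15 and 14.3.

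LOC105370849 had 1 region, chr15:62254347-62254748, which also lists GOLGA2P11 and LOC105370852. Its signal was 20.3 and 17.3 in Cas9 control in DMSO, 17.9 and 12.4 in ATRA, 2.67 and 3.64 in HK3-null in DMSO and 3.80 and 1.27 in ATRA (DMSO difference -2.26, SE 0.54, adjusted p = 7.4e-04). LOC101927657, which RefSeq places at chr8:126325495-126329535, had 1 region outside its annotated body, chr8:126321828-126322556, with 506 and 494 in Cas9 control in DMSO, 704 and 537 in ATRA, 164 and 176 in HK3-null in DMSO and 190 and 203 in ATRA (-1.55, SE 0.26, adjusted p = 1.7e-05). This region stayed well above 0 in HK3-null, where the RNA was at 0 or 1 count. The ratio of the means between genotypes in DMSO was 2.94 there, the third smallest of the 16 after 2.23 and 2.32.

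Among the genes on in HK3-null, the region over the start of WASF3 (chr13:26557287-26558131) had 3.35 and 5.0 in Cas9 control in DMSO and 1.92 and 2.55 in ATRA, and 114 and 107 in HK3-null in DMSO and 101 and 111 in ATRA (DMSO difference 4.45, SE 0.36, adjusted p = 1.3e-09). The start of ARSD (chrX:2928188-2929492, also listing ARSE) had 1.5 and 1.75 in Cas9 control in DMSO, 1.83 and 3.14 in ATRA, 59.0 and 62.6 in HK3-null in DMSO and 130 and 107 in ATRA (4.56, SE 0.39, adjusted p = 2.8e-09). The start of XK (chrX:37685432-37686260, also listing LANCL3) had 1.27 and 1.75 in Cas9 control in DMSO, 1.47 and 1.17 in ATRA, 49.8 and 46.1 in HK3-null in DMSO and 42.3 and 56.4 in ATRA (4.29, SE 0.45, adjusted p = 4.8e-08). At these 3 starts the signal in Cas9 control was 5 or less in all 4 libraries.

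The start of DDIT4L (chr4:100189959-100190905, also listing LOC101929353, an antisense lncRNA) had 1.73 and 2.67 in Cas9 control in DMSO, 1.25 and 0 in ATRA, 17.2 and 15.8 in HK3-null in DMSO and 15.3 and 20.1 in ATRA (2.47, SE 0.62, adjusted p = 0.0010). LOC101929353 overlaps DDIT4L on the other strand, the libraries were directional, and whether the counting step used strand is not given in the sources used here. At the first exon of FOXP2 (chr7:114084507-114086671) the signal was 16.9 and 17.3 in Cas9 control in DMSO, 16.5 and 10.6 in ATRA, 114 and 122 in HK3-null in DMSO and 67.7 and 82.0 in ATRA (2.72, SE 0.32, adjusted p = 2.3e-07). In an intron of FOXP2 (chr7:114554766-114555221) it was 26.4 and 27.9 in Cas9 control in DMSO, 8.46 and 6.5 in ATRA, 67.0 and 54.3 in HK3-null in DMSO and 36.7 and 47.8 in ATRA (1.12, SE 0.33, adjusted p = 0.0040). With 0 counts of RNA in all 6 Cas9 control libraries, both FOXP2 regions still had a signal of 6.5 or more in every Cas9 control library. The intronic one lost its call without replicate 1 of HK3-null in DMSO (limma adjusted p = 0.065).

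**Figure D2:**
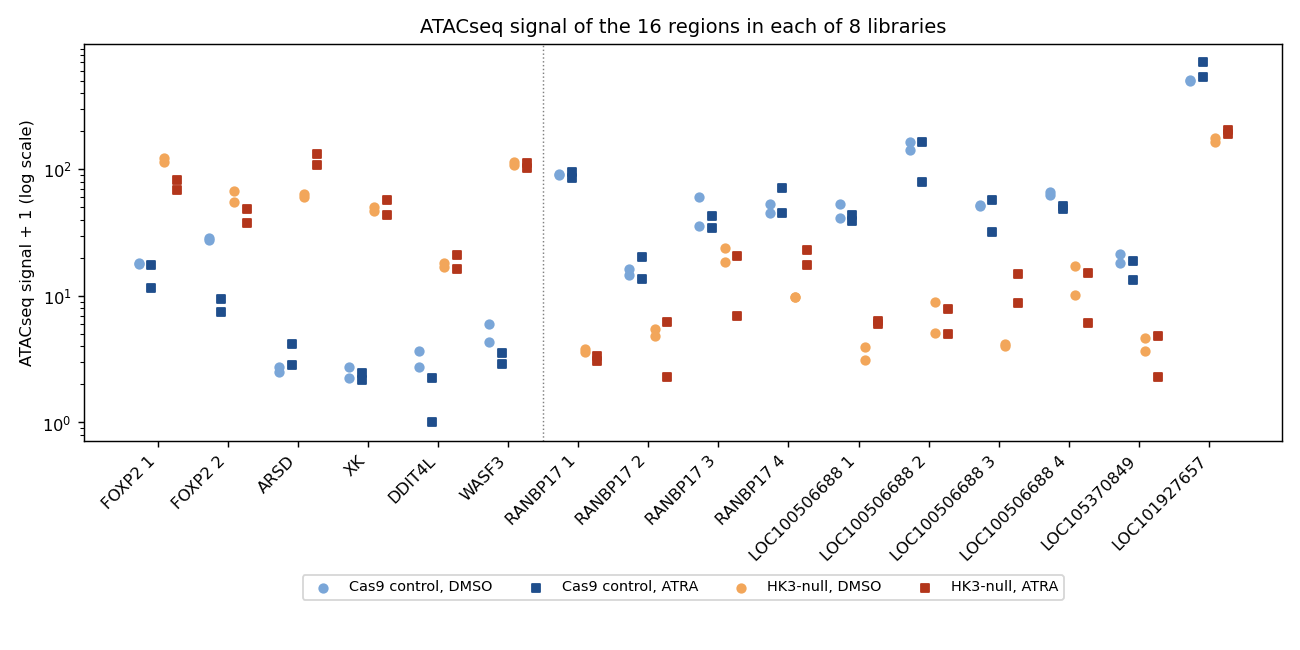
ATACseq signal plus 1 on a log scale for the 16 regions that list one of the genes (x axis, numbered from low to high coordinate where a gene has several), in each of the 8 libraries (2 points per group). The 6 regions left of the dotted line are higher in all HK3-null libraries, and the 10 right of it are higher in all Cas9 control libraries, with the smallest DMSO ratios of 2.23 and 2.32 at FOXP2 region 2 and RANBP17 region 3.

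The effect of ATRA was tested on the same regions, and the share called was near that of all regions in both genotypes. In HK3-null 1 of 16 passed (12.6% of all 8286 regions, 4.41% upwards and 8.18% downwards), the region at chr5:1002057-1002411 near LOC100506688 and NKD2, which rose from a mean of 3.09 to 10.9 (1.48, SE 0.40, adjusted p = 0.016) in the genotype where both genes were off. Without replicate 1 or replicate 2 of HK3-null in DMSO this call was lost (adjusted p = 0.062 and 0.067), as it was without replicate 2 in ATRA (adjusted p = 0.12). In Cas9 control 1 of 16 passed (13.4% of all regions, 2.26% upwards and 11.1% downwards), the intronic region of FOXP2, which fell from a mean of 27.1 to 7.48 (-1.74, SE 0.33, adjusted p = 0.0010), again where the gene was off. The difference of the ATRA effects between genotypes was tested for all regions, and it passed in 0 of these 16 (limma, smallest adjusted p = 0.22, 2 with an unadjusted p under 0.05) and in 9 of 8286 (0.109%).

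The start regions are set beside the RNA here. DDIT4L rose 3.56-fold in RNA, while its start differed by 0.083 on the log2 scale (interval -1.19 to 1.36, adjusted p = 0.95). The start of XK differed by 0.027 (interval -0.90 to 0.95, adjusted p = 0.98) and that of WASF3 by -0.059 (interval -0.80 to 0.68, adjusted p = 0.94). That of ARSD differed by 0.95 (interval 0.14 to 1.75, adjusted p = 0.11), with both ATRA libraries above both DMSO libraries (with a pseudocount of 5 the adjusted p was 0.029), and that of FOXP2 by -0.65 (interval -1.31 to 0.000345, adjusted p = 0.19). In Cas9 control the start of RANBP17 differed by -0.0048 (interval -0.76 to 0.75) and that of LOC100506688 by -0.42 (interval -1.22 to 0.38). With 2 libraries per group these intervals are wide. The RNA change, on its own log2(count + 1) scale, lay inside the interval of the start region for XK, ARSD, FOXP2, RANBP17 and LOC100506688. For DDIT4L and WASF3 it lay outside, though the RNA interval of WASF3 (-1.44 to -0.51) overlapped that of its start region. The difference between RNA and chromatin was not tested.

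**Figure D3:**
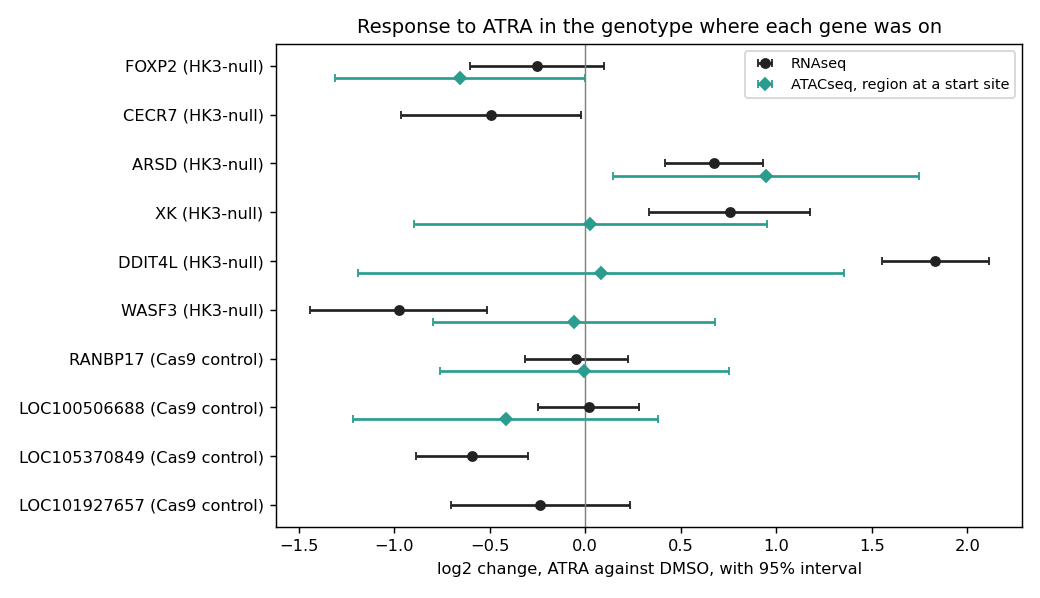
Change with ATRA on the log2 scale (x axis) in the genotype in which each gene was on, with 95% intervals, for RNAseq (circles, 3 against 3 libraries) and for the ATACseq region over the gene's start where there is one (diamonds, 2 against 2 libraries). DDIT4L stands at 1.83 in RNA and 0.083 in ATACseq, WASF3 at -0.98 and -0.059, and ARSD at 0.68 and 0.95.

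The neighbours of the genes were compared next, to see how far from each gene the on and off pattern was found. For each gene the 3 nearest expressed genes on each side were taken (57 in all, since ARSD had expressed neighbours on 1 side only). In DMSO 19 of the 57 were higher in HK3-null, 18 lower and 20 did not pass (56.7% of 13256 genes tested passed, 28.7% higher and 28% lower), and in ATRA 19 were higher, 20 lower and 18 did not pass (61.6% passed, 31% higher and 30.6% lower). A neighbour that was at or near 0 in the same genotype as the named gene stood beside LOC100506688 (NKD2), XK (PRRG1), at low counts in ATRA CECR7 (TPTEP1) and, at low counts in DMSO, WASF3 (SHISA2, with 1, 0 and 0 counts in Cas9 control and 14, 14 and 12 in HK3-null).

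Beside LOC100506688, NKD2, an inhibitor of Wnt signalling 11.5 kb away, had 2296, 2110 and 2156 counts in Cas9 control in DMSO and 1, 1 and 2 in HK3-null. In ATRA it had 2429, 2639 and 1869 counts in Cas9 control and 0, 1 and 1 in HK3-null. On the log2(count + 1) scale the difference was -9.90 in DMSO (SE 0.27, adjusted p = 3.2e-11) and -10.49 in ATRA (SE 0.27, adjusted p = 2.35e-11). NKD2 was thus off in HK3-null as LOC100506688 was. SLC12A7, a potassium chloride cotransporter 53.0 kb away, had 3022, 3238 and 2933 counts against 657, 647 and 734 in DMSO (-2.17, SE 0.10, adjusted p = 3.85e-09) and was lower by more in ATRA (-3.49, SE 0.10, adjusted p = 6.0e-11). On the other side TRIP13 (-0.76 in DMSO and -1.03 in ATRA), BRD9 (-0.76 and -0.79) and ZDHHC11 (-1.15 and -1.74) were lower by amounts nearer the median of chromosome 5, which was -0.74 in DMSO and -0.77 in ATRA over 541 genes. TERT, the telomerase reverse transcriptase 255.8 kb away, had 995, 803 and 946 counts in Cas9 control and 1148, 967 and 995 in HK3-null in DMSO (0.18, SE 0.27, adjusted p = 0.59) and was lower in HK3-null in ATRA (-1.63, SE 0.27, adjusted p = 2.0e-04). In ATACseq, all 12 regions within 100 kb of LOC100506688 were lower in HK3-null in DMSO, where 90.7% of the 728 regions of chromosome 5 were lower.

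Around XK, PRRG1, a transmembrane Gla protein 228.5 kb away, had 2, 0 and 0 counts in Cas9 control and 253, 289 and 261 in HK3-null in DMSO, and 0 in all 3 Cas9 control libraries against 221, 265 and 232 in ATRA (7.54 and 7.90 on the log2(count + 1) scale, SE 0.36, adjusted p = 4.3e-09 and 2.8e-09). PRRG1 was therefore off and on in the same libraries as XK. CYBB, the catalytic subunit of the phagocyte NADPH oxidase 47.9 kb on the other side, had 241, 251 and 180 counts against 8433, 8696 and 7412 in DMSO (5.20, SE 0.11, adjusted p = 3.8e-12). In ATRA CYBB had 6412, 5871 and 5973 in Cas9 control and 47716, 45030 and 44349 in HK3-null (2.91, SE 0.11, adjusted p = 4.6e-10), in which XK had 3 or 4 and 628 or more counts. LANCL3, 1.3 kb from XK and listed by the same region, had 2 or 3 counts in all 6 DMSO libraries, and in ATRA 15, 18 and 10 in Cas9 control against 55, 47 and 41 in HK3-null (1.69, SE 0.30, adjusted p = 3.3e-04). DYNLT3, a dynein light chain 106.7 kb away, did not pass in either treatment (-0.21, adjusted p = 0.22, and -0.25, adjusted p = 0.14), and SRPX passed in DMSO only (1.87, SE 0.45, adjusted p = 0.0035, and 1.06, adjusted p = 0.058 in ATRA). Genes that differed between genotypes and genes that did not pass thus lay side by side along this stretch. All 3 regions within 100 kb of XK were higher in HK3-null in DMSO, where 40.3% of the 154 regions of the X chromosome were lower.

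RANBP17 ends 87.1 kb before NPM1, the nucleolar phosphoprotein that is often mutated in this leukaemia. NPM1 had 120460, 127197 and 108212 counts in Cas9 control and 50816, 50820 and 51726 in HK3-null in DMSO (-1.21, SE 0.085, adjusted p = 1.1e-07) and was lower in ATRA also (-1.36, SE 0.085, adjusted p = 3.5e-08). NPM1 was lower by more than the median of chromosome 5, which was -0.74 in DMSO and -0.77 in ATRA, while RANBP17 was at 0. KCNMB1, a potassium channel subunit on the other side, passed in DMSO (-1.08, adjusted p = 0.0057) and not in ATRA (0.11, adjusted p = 0.76). All 7 regions within 100 kb of RANBP17 were lower in HK3-null in DMSO.

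The chromosome of a gene did not always move with it. Over 234 genes of chromosome 13 the median difference between genotypes in DMSO was -0.58, while WASF3 was on in HK3-null only, and its neighbour CDK8, the Mediator kinase, was lower there (-0.72, SE 0.14, adjusted p = 9.4e-04). Of the 4 regions within 100 kb of WASF3, 1 was higher and 3 were lower in HK3-null in DMSO, where 87% of the 324 regions of chromosome 13 were lower. Over 399 genes of chromosome 8 the median was 1.09, while LOC101927657 was off in HK3-null, and both regions within 100 kb of it were lower there, where 2.6% of the 1154 regions of that chromosome were lower. On chromosome 15 the median was -0.93 over 407 genes, and 5 of the 6 neighbours of LOC105370849 were lower in HK3-null in DMSO. VPS13C, which tethers membranes for lipid transfer, stood at -1.06 (limma adjusted p = 5.1e-06). TLN2, a talin, lay further from the median at -2.0 (adjusted p = 0.0022), with 91, 41 and 29 counts in Cas9 control. TPM1, 788.0 kb away, did not pass (-2.61, SE 1.14, adjusted p = 0.067), and its Cas9 control libraries in ATRA had 103, 86 and 4219 counts. The medians were 0.025 on chromosome 7, 0.042 on X, 0.072 on chromosome 4 and -0.097 on chromosome 22, beside 0.0012 over all genes tested.

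Near FOXP2, the nearest expressed gene, MDFIC, a MyoD family inhibitor domain protein 228.3 kb away, had 359, 405 and 375 counts against 1231, 1177 and 1278 in DMSO (1.69, SE 0.10, adjusted p = 1.9e-08). All 6 neighbours of FOXP2 were higher in HK3-null in both treatments, but those other than MDFIC lay 967.8 to 1516.8 kb away. Near CECR7, IL17RA, the interleukin 17 receptor 24.9 kb away, was higher in HK3-null in DMSO (0.47, SE 0.093, adjusted p = 8.7e-04) and in ATRA (1.20, SE 0.093, adjusted p = 2.3e-07), and TPTEP1, a pseudogene, had 0 in all Cas9 control libraries, 1, 0 and 0 in HK3-null in DMSO and 12, 10 and 7 in ATRA (limma adjusted p = 2.4e-05 in ATRA). Around DDIT4L, LAMTOR3 and DNAJB14 did not pass, and H2AFZ, a histone variant gene, was lower in HK3-null in DMSO by a small amount (-0.31, SE 0.073, adjusted p = 0.0027). BANK1, a B cell scaffold 1600.3 kb away, was higher (1.05, SE 0.12, adjusted p = 1.0e-05). In ATRA 0 of the 6 neighbours of DDIT4L passed in limma (0 at an unadjusted p under 0.05), and 1 did with the replicate number as a block.

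**Figure D4:**
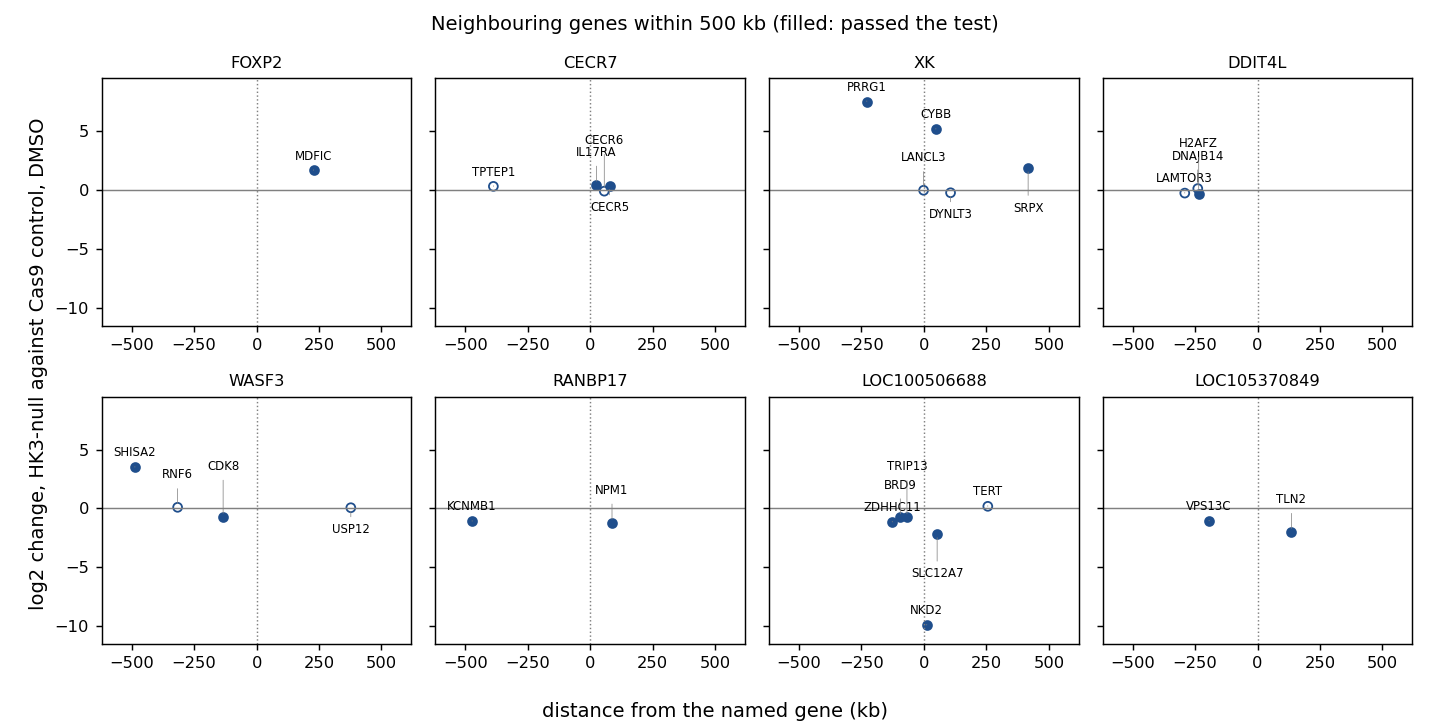
Difference between HK3-null and Cas9 control in DMSO on the log2(count + 1) scale (y axis) for expressed neighbours within 500 kb, against their distance from the named gene in kb (x axis, negative towards lower coordinates). Filled points passed the test. PRRG1 (7.54) and CYBB (5.20) stand far above 0 near XK and NKD2 (-9.90) far below 0 near LOC100506688, while those of DDIT4L and CECR7 lie between -0.31 and 0.47.

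Relatives and partners of the coding genes were read from lists to see how the rest of each family or pathway stood. The shares over all genes to read the counts against are 28.7% higher and 28% lower by genotype in DMSO, and 31% and 30.6% in ATRA. Of the other FOXP genes, FOXP4 was higher in HK3-null, at 1266 ± 37.8 counts against 1853 ± 104 in DMSO (0.55, SE 0.065, adjusted p = 1.3e-05). FOXP1 had 800 ± 20 against 785 ± 57.5 (-0.030, SE 0.071, adjusted p = 0.75), and FOXP3 had 6 ± 1 and 2 ± 1 counts and was not tested. The other FOXP genes thus had counts in both genotypes.

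Of 20 genes of mTORC1 and its upstream regulators, 19 were tested. In DMSO 5 were higher and 4 lower in HK3-null, and in ATRA 7 were higher and 4 lower. DDIT4, the inhibitor related to DDIT4L, had 850 ± 77.7 and 709 ± 75.3 counts in DMSO (-0.26, SE 0.12, adjusted p = 0.069) and rose with ATRA in both genotypes, by 1.30 in HK3-null (SE 0.12, adjusted p = 2.1e-05) and 1.64 in Cas9 control (SE 0.10, adjusted p = 9.2e-06). DEPTOR, another inhibitor of the complex, had 38.7 ± 4.73 counts in Cas9 control and 519 ± 19.8 in HK3-null in DMSO (3.72, SE 0.17, adjusted p = 3.5e-09), and with ATRA it fell to 7.67 ± 1.15 and 22 ± 2. Among these 3 inhibitors, DDIT4 and DDIT4L rose with ATRA in HK3-null and DEPTOR fell. The median difference of the list was -0.090 in DMSO and 0.078 in ATRA, beside 0.0012 and 0.0085 over all genes tested.

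Of 23 genes of the WAVE complexes and of ARP2/3 with its regulators, 22 were tested, and in DMSO 13 were higher and 6 lower in HK3-null, with a median of 0.31 beside 0.0012 over all genes tested (28.7% higher and 28% lower). WASF2, the WAVE protein of blood cells, had 5654 ± 76.7 and 6915 ± 257 counts in DMSO (0.29, SE 0.045, adjusted p = 1.2e-04). WASF1 had 146 ± 20 and 95.3 ± 21.1 (-0.63, SE 0.23, adjusted p = 0.033) and fell with ATRA in both genotypes, with a log2 difference of -1.36 in HK3-null and -1.29 in Cas9 control (adjusted p = 9.4e-04 and 0.0018). CYFIP1, a core subunit of the WAVE complex, had the largest difference of those called in DMSO, with 1815 ± 134 in Cas9 control and 242 ± 17.5 in HK3-null (-2.90, SE 0.088, adjusted p = 7.4e-11). With ATRA 14 of the 22 rose and 1 fell in HK3-null, where WASF3 fell and 26.7% of all genes rose and 26.6% fell. ABI3 had the largest rise, from 62.7 ± 12.6 to 345 ± 67.4 counts (2.44, SE 0.20, adjusted p = 1.1e-05).

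Of 19 sulfatases and activating factors, 12 were tested, and in DMSO 8 were higher and 3 lower in HK3-null (28.7% and 28% of all genes). SGSH, a lysosomal heparan sulfatase, was near 0 in the same genotype as ARSD, with 2.0 ± 3.46 and 2.67 ± 1.15 counts in Cas9 control in DMSO and ATRA and 49.3 ± 15.3 and 625 ± 23.1 in HK3-null (4.67 and 7.46, SE 0.61, adjusted p = 2.8e-05 and 3.6e-07). ARSA, the lysosomal sulfatase of sphingolipids, was higher in HK3-null in both treatments (0.60, SE 0.098, adjusted p = 1.9e-04 in DMSO, and 1.23, SE 0.098, adjusted p = 3.0e-07 in ATRA). STS, the steroid sulfatase on the same chromosome, was lower in HK3-null (-1.39, SE 0.14, adjusted p = 3.8e-06 in DMSO). ARSE, which the ARSD region also lists, had a mean of at most 1.33 counts in each group. This neighbour of ARSD was thus off in both genotypes. With ATRA 7 of the 12 sulfatase genes rose and 0 fell in HK3-null (limma, adjusted p under 0.05), where 26.7% of all genes rose and 26.6% fell.

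Of the 10 relatives and partners of XK, 5 were tested, and in DMSO 2 were higher and 0 lower in HK3-null. VPS13A, the lipid transfer protein that binds XK, had 2663 ± 166 and 2425 ± 183 counts in DMSO (-0.14, SE 0.074, adjusted p = 0.14). The relatives XKR5 and XKR9 passed at low counts, XKR9 with 0.667 ± 0.577 and 15.3 ± 3.06 in DMSO (3.35, SE 0.45, adjusted p = 3.9e-05). VPS13A was thus present in both genotypes, and KEL in neither.

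Of 13 exportins and RAN cycle genes, all 13 were tested, with 2 higher and 5 lower in HK3-null in DMSO. XPO7, the closest relative of RANBP17, was higher where RANBP17 was off, at 2199 ± 91.2 counts in Cas9 control and 4478 ± 18.3 in HK3-null in DMSO (1.03, SE 0.063, adjusted p = 3.4e-08) and by the same amount in ATRA (1.02). XPO7 lies on chromosome 8, whose median was 1.09. With ATRA 9 of the 13 fell and 0 rose in each genotype (limma, adjusted p under 0.05), where 26.6% of all genes fell in HK3-null and 21.4% in Cas9 control, while RANBP17 did not pass in the genotype where it was on. Of 14 symbols of the cat eye syndrome region, 8 were tested, with 5 higher and 2 lower in HK3-null in DMSO. MICAL3 had 29.0 ± 15.6 and 592 ± 28.1 counts (4.42, SE 0.30, adjusted p = 9.3e-08), CECR5 was higher in HK3-null (0.38, SE 0.088, adjusted p = 0.0027) and CECR1, an adenosine deaminase, was lower (-2.04, SE 0.48, adjusted p = 0.0030).

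Markers of other cell types were read beside these results. The 9 lymphoid markers summed to 51 to 112 counts in Cas9 control and 154 to 203 in HK3-null. PAX5, the B cell transcription factor, had 1.0 ± 1.0 and 0.333 ± 0.577 counts in Cas9 control in DMSO and ATRA and 103 ± 14.2 and 75.3 ± 7.57 in HK3-null, so it was near 0 and on in the same genotypes as the 6 genes on in HK3-null. MS4A1 was at 0 in every library, and CD79A had 49.3 ± 6.66 and 55.3 ± 5.69 counts in Cas9 control and HK3-null in DMSO. The 6 epithelial and embryonic kidney line markers summed to 11 to 60 counts in all libraries, with PAX2 at 0 in every one. In Cas9 control in ATRA, KRT8 had 10, 13 and 38 counts and KRT18 had 1, 3 and 15, both highest in replicate 3. The part of these markers in the results was not tested.

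Over the 12 libraries the genes whose log2(count + 1) was most like that of each named gene were sought among 13246 genes, as a description with no test, since the libraries share genotype and treatment. For FOXP2 these were MTMR9 and FAM91A1 (Pearson's r = 0.998 for each), for DDIT4L MSRA and MRC2 (0.996 each), for WASF3 C8orf88 (0.998) and TPD52 (0.995), for XK ARG1 and GNG7 (0.996 each), for ARSD TMCO4 and GAS2L3 (0.997 each) and for CECR7 MEIOC (0.998) and FNTA (0.997). RANBP17 and LOC100506688 shared the same nearest pair, MSRB3 (0.999 for each) and ZNF441 (0.998 for each), and LOC105370849 was nearest to MSRB3 (0.999) and SLC2A8 (0.997). LOC101927657 was nearest to WDR41 (0.998) and SNX1 (0.997). ARG1, the arginase of granules in granulocytes, had 1.0 and 4.33 counts on average in Cas9 control in DMSO and ATRA and 244 and 501 in HK3-null, and TPD52 had 2.67 and 1.0 against 2291 and 1371. Others of these genes were expressed in both genotypes at different levels, such as MSRB3, a methionine sulfoxide reductase, with 2065 and 1867 against 127 and 139 counts. Of the genes named here by likeness, 6 lie on chromosome 8 (MTMR9, FAM91A1, FNTA, MSRA, C8orf88 and TPD52), all beside genes on in HK3-null. Chromosome 8 held 399 of the 13256 genes tested by genotype, with a median difference of 1.09 in DMSO. Whether the likeness goes beyond this shift was not tested.

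The start regions and the other regions also differed in sequence. Over the central 300 bases of the 7 start regions the GC content was 52.7% to 79.7% (median 70.7%), with 3 to 46 CG (median 26), and 5 of 7 held a GC box. Over the other 9 regions it was 37.0% to 79.3% (median 46.3%), with a median of 5 CG, and 1 of 9 held a GC box, the region at chr5:1004565-1005202 that also lists NKD2. Over all 8286 regions the median GC content was 50.3%, the median number of CG was 5, and 19.8% held a GC box. The letters GAGGAA were in 1 of the 7 start regions and 5 of the other 9, and in 42.9% of all regions. The start regions of genes on in HK3-null (FOXP2, ARSD, XK, DDIT4L and WASF3) and of those on in Cas9 control (RANBP17 and LOC100506688) both included GC-rich and less GC-rich sequence.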

How the data were processed

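RNAseq (12 libraries) and ATACseq (8 libraries) of HL60 cells were used as deposited, on GRCh38. The RNAseq values were deposited by the authors as log2 values of gene counts scaled between libraries, in which 0 stands as the log2 of 0.001. They were turned back to whole numbers (the largest deviation was 0.0035%) and are called normalized counts. The methods text describes RPKM, which these values are not, and since they are not raw counts no count model was run. The 330 rows without a gene name (at most 0.0093% of counts) were left out. The ATACseq signal was deposited by the authors as fragment density per region of 8286 regions chosen on the HK3-null to Cas9 ratio in ATRA. DESeq2 and MACS2 are named in the submitters' processing notes, without version. ATACseq reads were mapped by the authors with BWA, and the RNAseq aligner was not given in the sources used here. No column of other samples was present.

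Tests were limma 3.58.1 (R 4.3.3) with a mean trend on log2(count + 1) or log2(signal + 1), and Benjamini-Hochberg adjusted p under 0.05 was called. ATRA was tested within each genotype (6 libraries), and genotype over 12 RNAseq or 8 ATACseq libraries. Genes were kept where any group averaged above 3 on the deposited log2 scale. ATACseq regions had no filter. A count of 0 allows 3 counts per library before scaling, and ratios to counts above 0 carry 95% exact intervals, for counting error only. Scripts were tested on simulated data.

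The 10 genes and all gene lists were chosen with earlier results of these data known. Named besides them were the 3 nearest expressed genes on each side, fixed relatives and partners, the called gene with the largest change per list, and the 2 genes most alike. BANK1 and SHISA2 are among the neighbours. Some marker genes are not reported here by name.

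RNAseq replicate numbers paired the libraries. The deviations from the group means correlated at 0.18 to 0.63 in all 18 same-numbered pairs (10667 genes) and at -0.64 to 0.29 in 36 others. Alternatives were other pseudocounts, filters, quantile normalization, 1 fit to all libraries, the replicate block, a fold threshold and leaving out each library. Positions came from RefSeq and GENCODE 44. Python 3.11.15 with pandas 2.3.3, numpy 2.4.6, scipy 1.17.1 and matplotlib 3.10.9 was used.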

Additional observations from a re-analysis of the deposited data

How the results depend on the processing

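The number of genes at 0 in Cas9 control and on in HK3-null was 4, and 12 with a mean of at least 20 counts as on, 1 with at least 100, 47 with up to 3 counts allowed as off, and 4 to 15 leaving out 1 library (15 without replicate 1 of Cas9 control in DMSO). In the other direction it was 7, and 11 at a mean of 20, 34 with up to 3 counts and 6 to 9 leaving out 1 library. The members called for ATRA in HK3-null (4) were 2 in 1 fit to all 12 libraries, 1 with a fold of at least 2 and 4 to 5 leaving out 1 library. In Cas9 control (1) they were 0 with a fold of at least 2. Over all genes, the 1 fit called 6780 of 13256 for ATRA in HK3-null. A fold of at least 2 left 2009 of 12682 genes called in HK3-null and 1239 of 12597 in Cas9 control. The 16 regions called for genotype were 14 to 16 leaving out 1 library. The regions called for ATRA in HK3-null (1) were 2 with a pseudocount of 5, with a filter above the 25th percentile and after quantile normalization, and 0 to 2 leaving out 1 library (0 without either HK3-null DMSO library, 2 without either Cas9 ATRA library). In Cas9 control (1) they were 2 after quantile normalization, with the region of LOC101927657 added (0.62, limma adjusted p = 9.9e-04). The causes were not tested.

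With the replicate number as a block, 5 members were called for ATRA in HK3-null and 2 in Cas9 control in RNAseq. Over all genes tested the block called 8713 of 12682 in HK3-null and 7550 of 12597 in Cas9 control, beside 6764 and 5221 without it. By genotype it called 9110 of 13256 genes in DMSO and 9638 in ATRA, beside 7517 and 8171 without it. The added calls given here are thus not a result about these genes. The block also called 15 rather than 8 genes of the mTORC1 list for ATRA in Cas9 control and 1 rather than 0 neighbours of ARSD in DMSO. It called 2 rather than 1 FOXP genes by genotype in ATRA and 2 rather than 1 relatives of XK for ATRA in Cas9 control. It changed no other call of a member. ATACseq libraries shared only a number (correlation of -0.15 to 0.031 over 12 same-numbered pairs), and the block left 16, 1 and 1 regions called. A crossed pairing, chosen after seeing the data, called 2 regions for ATRA in HK3-null.

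Directions that turned were of values that were not called. After quantile normalization the ATRA difference was -0.068 for LOC100506688 RNA, 0.016 for the WASF3 region in HK3-null and, in Cas9 control, 0.50 for the RANBP17 start, 0.033 for its region at 171154365, and 0.16, 0.070 and 0.0073 for the LOC100506688 regions at 989919, 1002057 and 1004565. Leaving out 1 library, the RNA difference ranged from -0.099 to 0.038 for RANBP17 and -0.077 to 0.099 for LOC100506688. For regions it ranged in HK3-null from -0.18 to 0.23 (XK), -0.10 to 0.27 (DDIT4L) and -0.13 to 0.0084 (WASF3). In Cas9 control it ranged from -0.077 to 0.068 (RANBP17 start), -0.19 to 0.39 (171010081), -0.66 to 0.096 (171154365) and -0.099 to 0.55 (171168108), and for LOC100506688 from -0.93 to 0.10 (997013) and -0.71 to 0.16 (1002057). The RNAseq depth limits values at 0 to bounds, and the unknown ATACseq depth allows none.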
